A study of Mus musculus with 19 samples.

Results

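The genes described here are 9 transcription factors of the medial pallium, the strip of embryonic cortex next to the dorsal midline: Emx2, Dmrt3, Dmrta2, Lhx2, Lhx9, Zic1, Zic2, Zic4 and Zic5. They were chosen by symbol and read from a table of 47643 gene symbols that gives each library's expression in TPM (a transcript level scaled for gene length and library total). All 9 were found. All 9 passed the filter on low values (at least 1 TPM in at least 4 libraries), which left 13520 genes for testing; Zic4 passed it mainly through medial libraries, so that its passing is not evidence of a regional difference.

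The samples were cortex of E14.5 mouse embryos, as 19 RNA-seq libraries. Controls, described as wildtype, gave 6 dorsal and 5 medial libraries, and mutants gave 4 dorsal and 4 medial libraries. The mutants carried GFAP::Cre and SmoM2: SmoM2 is a constitutively active Smoothened, the receptor-like protein at the head of the Hedgehog pathway inside the cell, and GFAP::Cre places the recombinase under a GFAP promoter, which works in radial glia, the neural stem cells of the cortex. RNA came from whole dissected pieces, so that recombined and other cells were measured together, and fewer cells of a type and less RNA per cell cannot be told apart. The sample labels call the pieces dorsal and medial, while the extraction text names medial and lateral pieces. Libraries are named below by genotype, region and the number in their title.

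Between 17357 and 18670 genes lay above 0 in a library, and libraries of a group correlated at 0.975 to 0.993 on the log2 scale. Gli1, a direct Hedgehog target used here as a check of the genotype labels, ranged from 0.327 to 1.08 TPM in control dorsal and from 0.200 to 0.558 TPM in control medial libraries. In mutants it ranged from 30.7 to 42.8 TPM dorsally and from 24.3 to 48.1 TPM medially. The cortical markers Emx1 and Tbr1 were present in every library, with Emx1 between 101.5 and 194.9 TPM and Tbr1 between 28.4 and 86.0 TPM. Depth is unknown because TPM keep no counts, so no counting error can be given.

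As background, the medial pallium gives rise to the hippocampus, and at its edge lies the cortical hem, a source of Wnt and Bmp signals and of Cajal-Retzius neurons. Emx2 is a homeobox gene graded from high caudomedially to low rostrolaterally and needed for hippocampal growth. Dmrt3 and Dmrta2 belong to the doublesex-related family, are graded in the same sense and help pattern the caudomedial cortex. Lhx2 and Lhx9 are close relatives among the LIM homeobox genes: Lhx2 gives progenitors cortical identity and keeps the hem confined to its edge, and Lhx9 marks the medial pallium. The Zic genes encode zinc finger proteins of the dorsal midline, hem, septum, Cajal-Retzius cells and meninges.

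The 9 genes lie at 7 places in the mouse genome (whole genes in GENCODE M21; its assembly, GRCm38, is mm10 under another name). Emx2 lies on the + strand at chr19:59458372-59465357 and Dmrt3 on the + strand at chr19:25610301-25623921. Dmrta2 lies on the + strand at chr4:109978053-109983687, Lhx2 on the + strand at chr2:38339281-38369733 and Lhx9 on the - strand at chr1:138825186-138848577. Zic1 (chr9:91358058-91365810, - strand) and Zic4 (chr9:91362413-91389348, + strand) are read in opposite directions and overlap by 3398 bp. Zic2 (chr14:122475435-122479852, + strand) and Zic5 (chr14:122456795-122465677, - strand) are also read in opposite directions, 9757 bp apart. Dmrta2 has a noncoding neighbour, Dmrta2os, that starts 239 bp away and runs the other way, and Emx2 overlaps its noncoding neighbour Emx2os by 264 bp. Whether the authors' quantification used strand is not given in the sources used here, so reads from overlapping opposite-strand genes (Zic1 and Zic4, Emx2 and Emx2os) may not be separable.

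The stretches just before the starts of Dmrta2 and Zic1 are shown. Each lies by an opposite-strand gene (Dmrta2os and Zic4) that, like the gene itself, was higher in medial than in dorsal control cortex. Emx2 has such a neighbour too (Emx2os) and is not shown. Of the windows read, only those of Dmrta2 and Zic1 held more than 1 match to CCAAT or its reverse complement. The stretches are from RefSeq on GRCm38.p6, read 5′ to 3′ on the gene's strand, and capitals mark matches to CCAAT. The Dmrta2 stretch covers chr4:109977775-109978024 on the + strand (250 bases), and the Zic1 stretch covers chr9:91365811-91366018 on the - strand (208 bases), inside the Zic4 gene.
Dmrta2: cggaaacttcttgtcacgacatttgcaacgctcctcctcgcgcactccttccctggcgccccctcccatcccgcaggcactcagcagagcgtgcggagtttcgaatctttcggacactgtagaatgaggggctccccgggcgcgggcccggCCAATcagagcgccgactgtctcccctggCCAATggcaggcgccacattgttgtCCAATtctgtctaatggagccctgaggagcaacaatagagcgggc
Zic1: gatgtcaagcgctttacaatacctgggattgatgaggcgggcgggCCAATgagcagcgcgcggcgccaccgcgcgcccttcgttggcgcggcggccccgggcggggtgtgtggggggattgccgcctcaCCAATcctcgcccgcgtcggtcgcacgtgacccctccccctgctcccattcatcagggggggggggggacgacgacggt
The Dmrta2 stretch held 3 matches and the Zic1 stretch 2. Over windows of the 250 bases before each RefSeq start, 8 of the 9 genes matched an entry (9 windows, with none for Zic2). CCAAT or its reverse complement ATTGG stood in 5 of these 9 windows (Dmrt3, Dmrta2, Emx2, Lhx9 and Zic1) and in 33.85% of 32851 windows of all genes. The letters TCAAAG (a TCF/LEF core, 13.83% of all windows), TGGGTGGTC (a GLI consensus, 0.2253%) and TAATTA (a homeodomain core, 4.84%) were searched on both strands and were not in these 9 windows.

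All 9 genes were higher in medial than in dorsal control cortex, with no overlap between the 5 medial and 6 dorsal libraries for any of them. For comparison, 17.6% of all tested genes were called higher medially and 11.1% were higher without overlap; the filter on Zic4 noted above applies to this count. The steepest were Lhx9 (9.50-fold between group means), Zic1 (6.87-fold) and Zic4 (16.8-fold, from a dorsal level under 1 TPM), and the shallowest Dmrta2 (1.82-fold) and Lhx2 (1.81-fold). In the mutant, 5 of the 9 were lower than control in medial cortex (Lhx9, Dmrt3, Emx2, Dmrta2 and Zic1) and 2 in dorsal cortex (Dmrt3 and Emx2), and none was higher. The call of Zic1 was lost in most alternatives, so that the medial count was usually 4. For comparison, 30.2% of all tested genes were called lower medially and 27.6% dorsally. Of the genes called here, Dmrt3 and Lhx9 showed no overlap between mutant and control medially, and Dmrt3 none dorsally, against 22.7% and 17.6% of all tested genes that were lower without overlap. The median log2 change of the 9 genes was -0.65 medially against -0.11 over all tested genes, and -0.25 against -0.10 dorsally. Calls here are at a limma p of 0.05 adjusted over all 13520 genes, and differences are on the log2(TPM + 1) scale with their standard error (SE), which understates changes of genes near or under 1 TPM. Nothing in the labels says that the libraries of a group are separate embryos; the p-values describe spread among libraries, which may be technical.

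**Figure D1:**
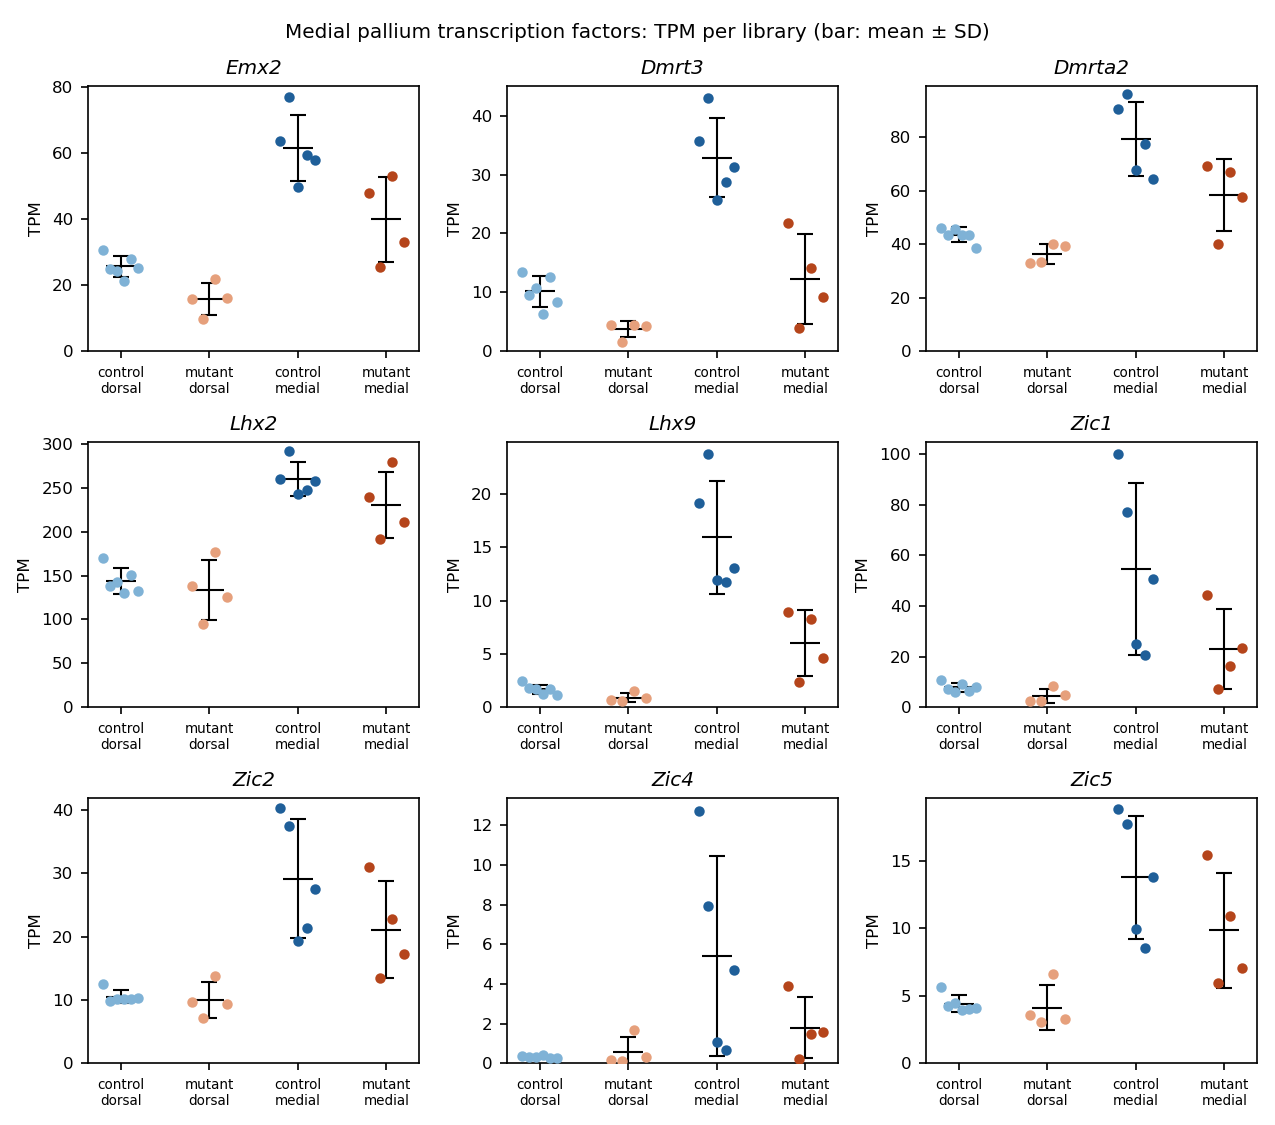
TPM (y axis, linear from 0, a separate scale for each gene) of the 9 genes in every library, by group on the x axis; points are libraries and bars are mean ± SD. Medial control libraries lie above all dorsal control libraries in each panel, and Dmrt3 and Lhx9 show no overlap between mutant and control medial libraries.

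Emx2 in control dorsal cortex had a lowest, median and highest value of 21.4, 25.2 and 30.7 TPM. In mutant dorsal libraries 1 to 4 it was 15.8, 9.75, 21.8 and 16.2 TPM. The highest mutant, library 3, lay just above the lowest control, and the other 3 lay below all controls. The decrease dorsally was -0.71 ± 0.20 (SE, adjusted p = 0.00883), with the mutant mean at 61.6% of control. In control medial libraries 2 to 6 Emx2 was 63.6, 77.0, 49.8, 59.5 and 57.9 TPM, and in mutant medial libraries 1 to 4 it was 48.1, 25.6, 53.1 and 33.0 TPM. Mutant libraries 2 and 4 were low, and mutant 3 lay within the control range. The medial decrease was -0.65 ± 0.20 (adjusted p = 0.0163), to 64.9% of control. It did not pass without mutant medial library 2 (-0.46, adjusted p = 0.0747) or without library 4 (-0.58, adjusted p = 0.0507). Medial exceeded dorsal by 1.22 ± 0.18 in controls (adjusted p = 0.000145) and by 1.27 ± 0.21 in mutants (adjusted p = 0.00239), without overlap in either genotype.

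Dmrt3 had the lowest ratio of mutant to control of the 9 genes in dorsal cortex. Control dorsal libraries ran from 6.39 through a median of 10.2 to 13.5 TPM, and mutant dorsal libraries 1 to 4 were at 4.53, 1.67, 4.49 and 4.34 TPM. All 4 mutants lay below all 6 controls, and mutant 2 lay well below the other 3. The decrease was -1.26 ± 0.32 (adjusted p = 0.00540), to 36.8% of control. In medial cortex the controls 2 to 6 were at 35.7, 43.0, 25.6, 28.8 and 31.4 TPM and the mutants 1 to 4 at 21.8, 4.00, 14.1 and 9.17 TPM. The groups did not overlap, and mutant medial 2 was about as low as the mutant dorsal libraries. The medial decrease was -1.54 ± 0.33 (adjusted p = 0.00157), to 37.3% of control, close to the dorsal proportion. The medial excess was 1.61 ± 0.30 in controls (adjusted p = 0.000754) and 1.34 ± 0.35 in mutants (adjusted p = 0.0144); in mutants the regions overlapped, and the call was lost without mutant dorsal 2 (1.08, adjusted p = 0.0687) or mutant medial 3 (1.21, adjusted p = 0.0556).

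Dmrta2, the relative of Dmrt3, was more abundant and changed less. Control dorsal libraries ran from 38.4 through 43.5 to 46.2 TPM, and mutant dorsal libraries 1 to 4 were at 33.2, 33.2, 40 and 39.5 TPM. Mutants 3 and 4 lay within the control range, and the dorsal difference of -0.25 ± 0.13 did not pass (adjusted p = 0.145). In medial cortex the controls 2 to 6 were at 90.4, 96.0, 67.8, 77.3 and 64.2 TPM and the mutants 1 to 4 at 69.3, 39.95, 67.1 and 57.5 TPM. The groups overlapped, and mutant 2 was again the lowest. The medial decrease was -0.44 ± 0.14 (adjusted p = 0.0152), to 73.9% of control, and it did not pass without mutant medial 2 (-0.28, adjusted p = 0.0691) or after median-ratio rescaling (-0.34, adjusted p = 0.0619). The medial excess was 0.83 ± 0.12 in controls (adjusted p = 0.000127) and 0.64 ± 0.14 in mutants (adjusted p = 0.00631).

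Lhx2 was the most abundant of the 9 genes in every group, on the per-length TPM scale, and the one with the smallest proportional medial decrease. Control dorsal libraries ran from 130.3 through 140.3 to 170.2 TPM, and mutant dorsal libraries 1 to 4 were at 138.4, 94.4, 177.2 and 125.4 TPM, on both sides of the controls. Control medial libraries 2 to 6 were at 260.3, 292.1, 243.0, 247.6 and 257.4 TPM, and mutant medial libraries 1 to 4 at 239.6, 191.5, 278.8 and 210.8 TPM. Neither mutant difference passed: -0.13 ± 0.13 dorsally (95% interval -0.41 to 0.14) and -0.19 ± 0.14 medially (-0.47 to 0.10), with adjusted p = 0.450 and 0.293. The medial excess was 0.85 ± 0.12 in controls (adjusted p = 0.000105) and 0.80 ± 0.14 in mutants (adjusted p = 0.00286), without overlap in either genotype.

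Lhx9 contrasted with its relative. Control dorsal libraries ran from 1.16 through 1.69 to 2.44 TPM, and mutant dorsal libraries 1 to 4 were at 0.643, 0.548, 1.54 and 0.884 TPM. Mutant 3 lay within the control range and the other 3 lay below it, and the difference of -0.50 ± 0.26 did not pass (adjusted p = 0.141). With a pseudocount of 0.1 in place of 1 it was -0.88 and passed (adjusted p = 0.0462). In medial cortex the controls 2 to 6 were at 19.1, 23.7, 12.0, 11.8 and 13.04 TPM and the mutants 1 to 4 at 8.95, 2.42, 8.25 and 4.63 TPM. All 4 mutants lay below all 5 controls. The decrease was -1.33 ± 0.27 (adjusted p = 0.000884), to 38.1% of control. The medial excess was 2.62 ± 0.24 in controls (adjusted p = 3.78e-06), and 1.80 ± 0.29 in mutants (adjusted p = 0.00207), without overlap in either genotype.

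Zic1 varied widely between medial libraries of a genotype. Control dorsal libraries ran from 6.11 through 7.55 to 10.8 TPM, and mutant dorsal libraries 1 to 4 were at 2.33, 2.67, 8.24 and 4.81 TPM. Mutant 3 lay among the controls and the other 3 below them; the difference of -0.80 ± 0.46 did not pass (adjusted p = 0.186). In medial cortex the controls 2 to 6 were at 99.8, 77.0, 25.0, 20.6 and 50.8 TPM and the mutants 1 to 4 at 44.4, 7.28, 16.3 and 23.6 TPM. Controls 4 and 5 were low and mutant 1 was high, so that the groups overlapped. The medial decrease was -1.23 ± 0.48, to 41.9% of control, with an adjusted p of 0.0490, next to the threshold. It lost the call in 8 of 10 planned settings and in 15 of the 19 fits that leave out a library. With the embryo as a random block it was -1.28 (adjusted p = 0.0899). The medial excess was 2.41 ± 0.43 in controls (adjusted p = 0.000559) and 1.98 ± 0.50 in mutants (adjusted p = 0.0121), where the call was lost without mutant dorsal 2 (1.83, adjusted p = 0.0518).

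Zic4, whose gene overlaps Zic1, was the least abundant. It ran from 0.264 to 0.438 TPM in control dorsal libraries, and mutant dorsal libraries 1 to 4 were at 0.147, 0.128, 1.71 and 0.313 TPM, with library 3 apart from the rest. Control medial libraries 2 to 6 were at 12.7, 7.96, 1.09, 0.678 and 4.71 TPM, and mutant medial libraries 1 to 4 at 3.92, 0.212, 1.503 and 1.58 TPM. Controls 2 and 3 were far above controls 4 and 5, and the mutants spanned the low controls. The mutant differences did not pass dorsally (0.15 ± 0.49, adjusted p = 0.844) or medially (-0.94 ± 0.51, adjusted p = 0.153). The medial difference passed without control medial 5 (-1.31, adjusted p = 0.0331). The medial excess was 1.85 ± 0.46 in controls (adjusted p = 0.00496), and in mutants it was 0.77 ± 0.53 and did not pass (adjusted p = 0.346).

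Zic2 and Zic5, the neighbours on chromosome 14, were highest in the same medial libraries, controls 2 and 3 and mutant 1. Zic2 ran from 9.85 through 10.2 to 12.5 TPM in control dorsal libraries and was at 9.69, 7.09, 13.9 and 9.41 TPM in mutant dorsal libraries 1 to 4. In control medial libraries 2 to 6 it was at 40.2, 37.5, 19.3, 21.4 and 27.5 TPM, and in mutant medial libraries 1 to 4 at 30.9, 13.4, 22.9 and 17.3 TPM. Zic5 ran from 3.96 through 4.19 to 5.65 TPM in control dorsal libraries and was at 3.54, 3.06, 6.58 and 3.30 TPM in the mutant ones. For both genes mutant dorsal 3 was above all controls, and the other 3 mutants were below all controls. Zic5 was at 18.8, 17.7, 9.97, 8.55 and 13.8 TPM in control medial libraries 2 to 6 and at 15.4, 5.94, 10.9 and 7.07 TPM in mutant medial libraries 1 to 4. The mutant differences of Zic2 (-0.10 ± 0.22 dorsally and -0.45 ± 0.23 medially) and of Zic5 (-0.12 ± 0.24 and -0.47 ± 0.25) did not pass (adjusted p = 0.763, 0.122, 0.733 and 0.145). Both medial differences passed without mutant medial 1 (Zic2 -0.65, adjusted p = 0.0290; Zic5 -0.70, adjusted p = 0.0313). The medial excess passed in controls for Zic2 (1.33 ± 0.21, adjusted p = 0.000167) and Zic5 (1.40 ± 0.23, adjusted p = 0.000232), and in mutants (0.98 ± 0.24 and 1.05 ± 0.26, adjusted p = 0.00957 and 0.0109).

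**Figure D2:**
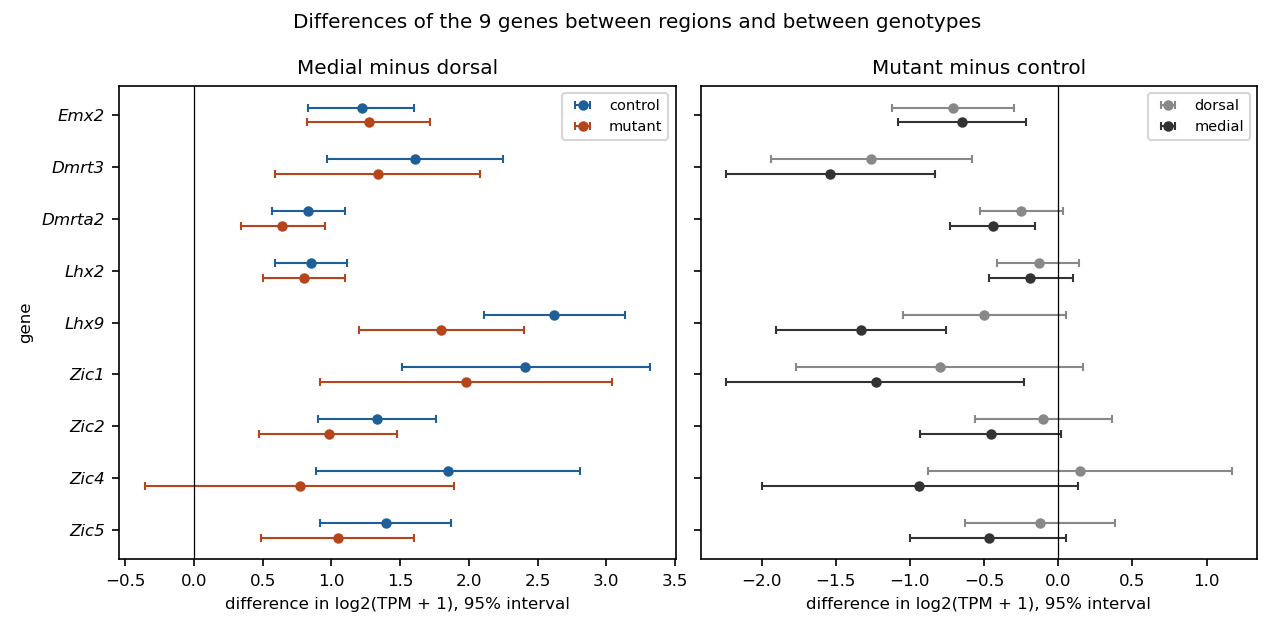
Differences in log2(TPM + 1) on the x axis for the 9 genes on the y axis, as points with 95% intervals from limma: medial minus dorsal by genotype on the left, mutant minus control by region on the right. All control regional intervals lie above 0, and the medial mutant intervals of Emx2, Dmrt3, Dmrta2, Lhx9 and Zic1 lie below 0.

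In all, 8 of the 9 genes were also higher medially in the mutant, where 8.03% of all tested genes were called higher, and the median regional difference was 1.05 in mutants beside 1.40 in controls. Only 3 of them (Emx2, Lhx2 and Lhx9) were free of overlap in mutants, against 7.11% of all tested genes. When the fit was confined to the 4 mutant dorsal and 4 mutant medial libraries, limma called 0 of the 9 genes and 0 of all genes; 8 of the 9 and 3643 genes had an unadjusted p under 0.05. With the embryo as a random block, 5283 genes were called between regions in mutants in place of 2545, and 6614 in controls in place of 4387; the counts among the 9 genes were still 8 and 9. Each group of libraries enters both a regional and a genotype comparison, so these share libraries.

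The order of levels shifted between regions. In control dorsal cortex the order was Lhx2, Dmrta2, Emx2, Zic2, Dmrt3, Zic1, Zic5, Lhx9 and Zic4, on the mean TPM per group. Zic2 overlapped Dmrt3, which overlapped Zic1, and the other neighbours in that order did not overlap. In control medial cortex Zic1 moved up behind Emx2, and all neighbours except Lhx2 and Dmrta2 overlapped. In mutant dorsal cortex Dmrt3 dropped to below Zic5, and in mutant medial cortex to below Zic2, with overlap between these neighbours in both.

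Whether the genotype difference depended on the region was tested directly. None of the 9 genes passed the limma test of medial minus dorsal mutant effects, in which 1 of all tested genes was called (0.0074%; Ccnd1, named because it was the only call, adjusted p = 0.0464). With the embryo as a random block 49 of all genes were called, and still 0 of the 9. Lhx9 was the only one of the 9 with an unadjusted p under 0.05: its medial change exceeded its dorsal change by -0.83 ± 0.38 (95% interval -1.62 to -0.04, adjusted p = 1). Lhx9 averaged 1.68 TPM in control dorsal and 0.903 TPM in mutant dorsal libraries. At these levels the added 1 of log2(TPM + 1) shrinks a change more than at its medial levels. How much of the gap for Lhx9 goes with this scale was not tested. Lhx9 was not called here in any alternative, a pseudocount of 0.1 included (lowest limma adjusted p = 0.2164). For Emx2 the difference was 0.05 ± 0.28 (-0.54 to 0.65) and for Dmrt3 -0.27 ± 0.46 (-1.25 to 0.70), so that both intervals include 0.

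The same question was asked within embryos, since a dorsal and a medial library that share genotype and title number deviated together; the descriptions number the medial controls differently, and pairs by that number did not. Medial exceeded dorsal for every gene in all 5 control embryos, and in all 4 mutant embryos except for Zic4, which was higher medially in 3 of 4. The medial to dorsal TPM ratio of Lhx9 had a median of 10.6 in control embryos (7.04 to 13.8) and 5.30 in mutant embryos (4.41 to 13.9). For Zic1 the median was 6.36 in controls (2.68 to 14.03) and 3.81 in mutants (1.97 to 19.04), and mutant embryo 1 had the highest ratio of all for both Zic1 and Lhx9. Emx2 ratios had a median of 2.33 in controls (2.13 to 3.15) and 2.53 in mutants (2.04 to 3.05), and their ranges overlapped. Exact two-sided permutation of genotype over the 9 embryos, in which p cannot fall below 0.0159, gave p = 0.0397 for Lhx9 (mean log2 difference 2.70 ± 0.35 SD, n = 5, against 1.80 ± 0.61 SD, n = 4). Adjusted over all tested genes it was 0.559, and the other 8 genes had exact p from 0.206 to 0.960. These differences are on the log2(TPM + 1) scale too, which shrinks the dorsal change of Lhx9.

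**Figure D3:**
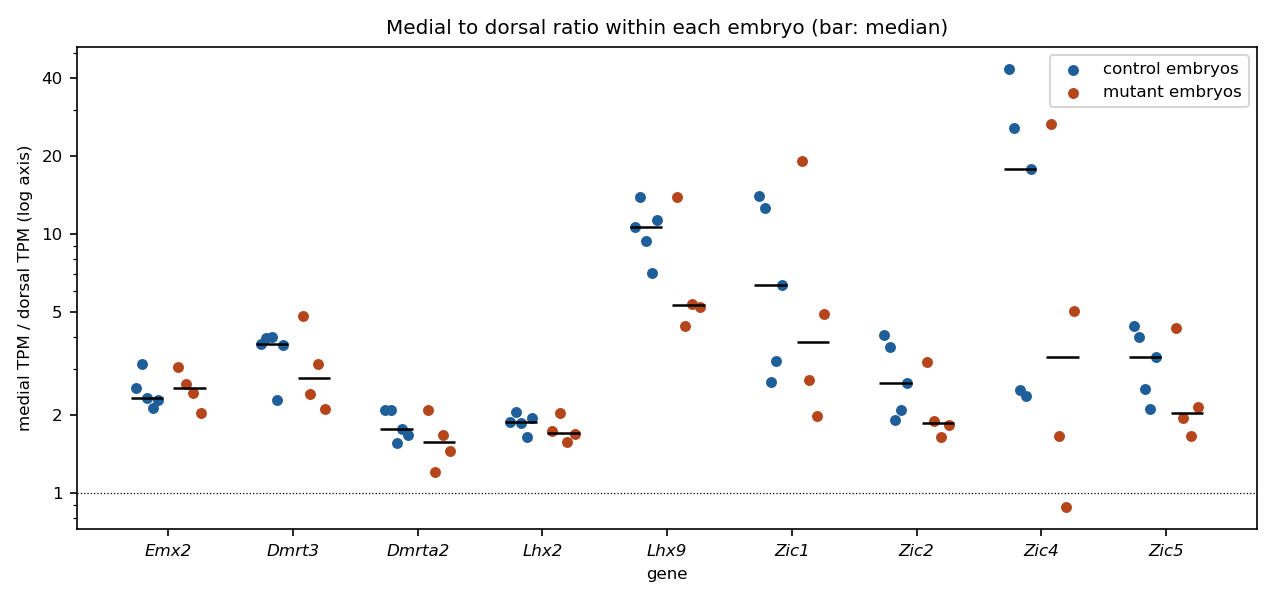
Ratio of medial to dorsal TPM within each embryo (y axis, log scale) for the 9 genes (x axis); points are 5 control and 4 mutant embryos, bars are medians and the dotted line marks a ratio of 1. The Zic1 and Zic4 ratios spread most within a genotype, and the Lhx2, Dmrta2 and Emx2 ratios least.

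The 4 Zic genes summed to a larger total in medial cortex. The summed TPM of Zic1, Zic2, Zic4 and Zic5 was 23.2 ± 3.20 (SD, n = 6) in control dorsal, 19.2 ± 7.71 (n = 4) in mutant dorsal, 103 ± 52.6 (n = 5) in control medial and 55.6 ± 28.3 (n = 4) in mutant medial libraries. Zic1 made up 34.0% ± 3.88 of this sum in control dorsal and 50.2% ± 7.34 in control medial libraries, beside 22.4% ± 5.88 and 38.3% ± 10.5 in the mutants. Zic2 was the largest of the 4 in dorsal cortex, with 45.6% ± 2.76 in controls and 53.7% ± 6.61 in mutants. These shares were not tested.

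**Figure D4:**
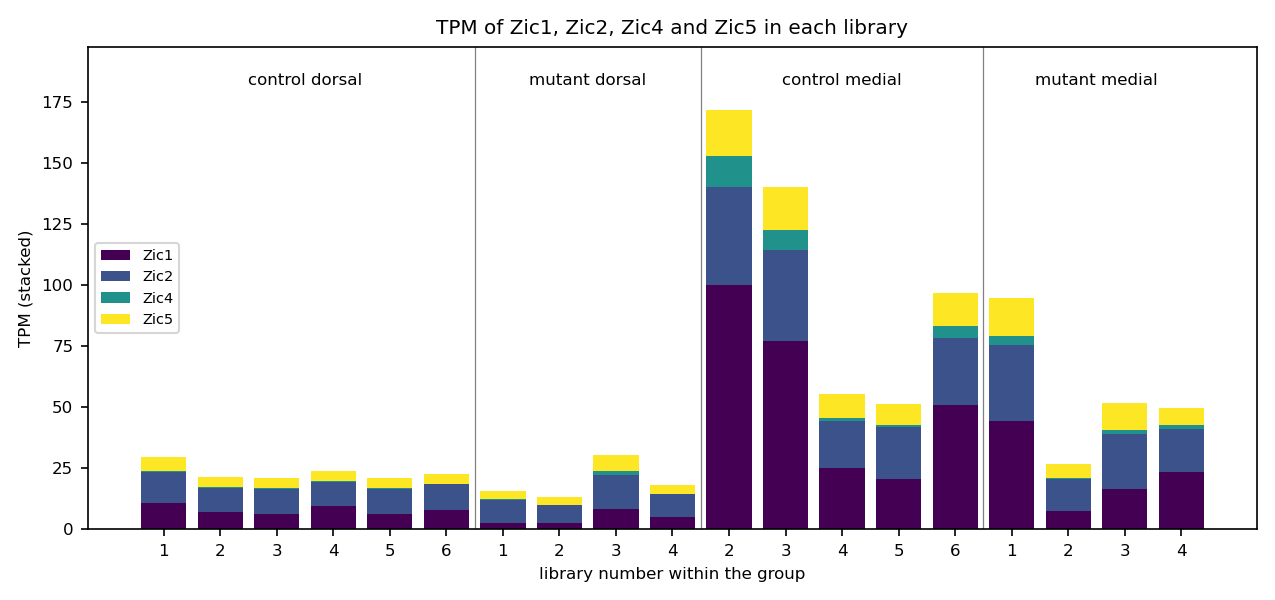
TPM of Zic1, Zic2, Zic4 and Zic5 stacked on the y axis for each of the 19 libraries on the x axis, by group. Totals reach 171.6 TPM in control medial 2 and stay between 12.9 and 30.4 TPM in all dorsal libraries, and the medial totals range widely within each genotype.

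The spread of the Zic genes among medial libraries went with some genes of the cortical hem, listed with the Wnt and Bmp signals of the medial edge. Wnt3a, a defining hem ligand, was at 8.76, 7.77, 0.206, 0.0430 and 2.43 TPM in control medial libraries 2 to 6 and at 7.83, 0.0468, 0.0318 and 0 TPM in mutant medial libraries 1 to 4. Wnt8b, another Wnt ligand of the hem and hippocampal edge, was at 22.8, 17.6, 1.88, 0.352 and 8.21 TPM in the same controls and at 23.7, 0.0765, 0.598 and 0.144 TPM in the mutants. Wnt3a and Wnt8b were thus high in controls 2, 3 and 6 and in mutant 1, and low in controls 4 and 5 and in mutants 2, 3 and 4. Not all listed genes followed this order. Msx1 was at 2.21 TPM in control medial 4, 0.963 TPM in control medial 6 and 2.45 TPM in mutant medial 3. Bmp6 was at 0.874 TPM in mutant medial 3 and 0.741 TPM in mutant medial 1. Within each genotype, Zic1, Zic2, Zic4 and Zic5 were highest in these same libraries, controls 2, 3 and 6 and mutant 1. Of 17 listed genes of hem and medial signalling 11 were tested. In control medial cortex 9 were higher than dorsally and Wnt7b was lower, where 17.6% of all tested genes were called higher. Of the 11, Wnt3a, Wnt8b, Rspo1, Rspo2, Lmx1a and Msx1 were under 1 TPM in every dorsal library. They passed the filter through medial libraries only, so that their passing is not evidence of a regional difference. In mutant medial cortex 4 of the 11 were lower than in controls (Wnt5a, Wnt7b, Bmp7 and Rspo3) and 0 higher, where 30.2% of all tested genes were called lower. Wnt7b and Rspo3 were not richer medially in controls (means of 237.6 TPM dorsally and 99.4 TPM medially, and of 66.7 and 63.1 TPM). Wnt3a and Wnt8b were not among the genes called lower.

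With the 4 medial libraries above 1 TPM of Wnt3a left out together (3 control and 1 mutant, chosen after the data were seen), 2 control and 3 mutant medial libraries remained. The fit then called 2683 genes medially in place of 5357, and 2 of the 9 genes, Dmrt3 and Lhx9. Emx2 kept its size but not its call (-0.60, adjusted p = 0.152), as did Dmrta2 (-0.43, adjusted p = 0.0729), and Zic1 fell to a smaller size (-0.64, adjusted p = 0.322). The regional difference of Zic4 in controls was 0.50 without these libraries and did not pass (adjusted p = 0.327), while the other 8 genes were still called. The libraries left out held the highest medial Zic1 and Zic4 levels of each genotype. The smaller differences of Zic1 and Zic4 thus cannot be told apart from an effect of this choice, and nothing is concluded from them.

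**Figure D5:**
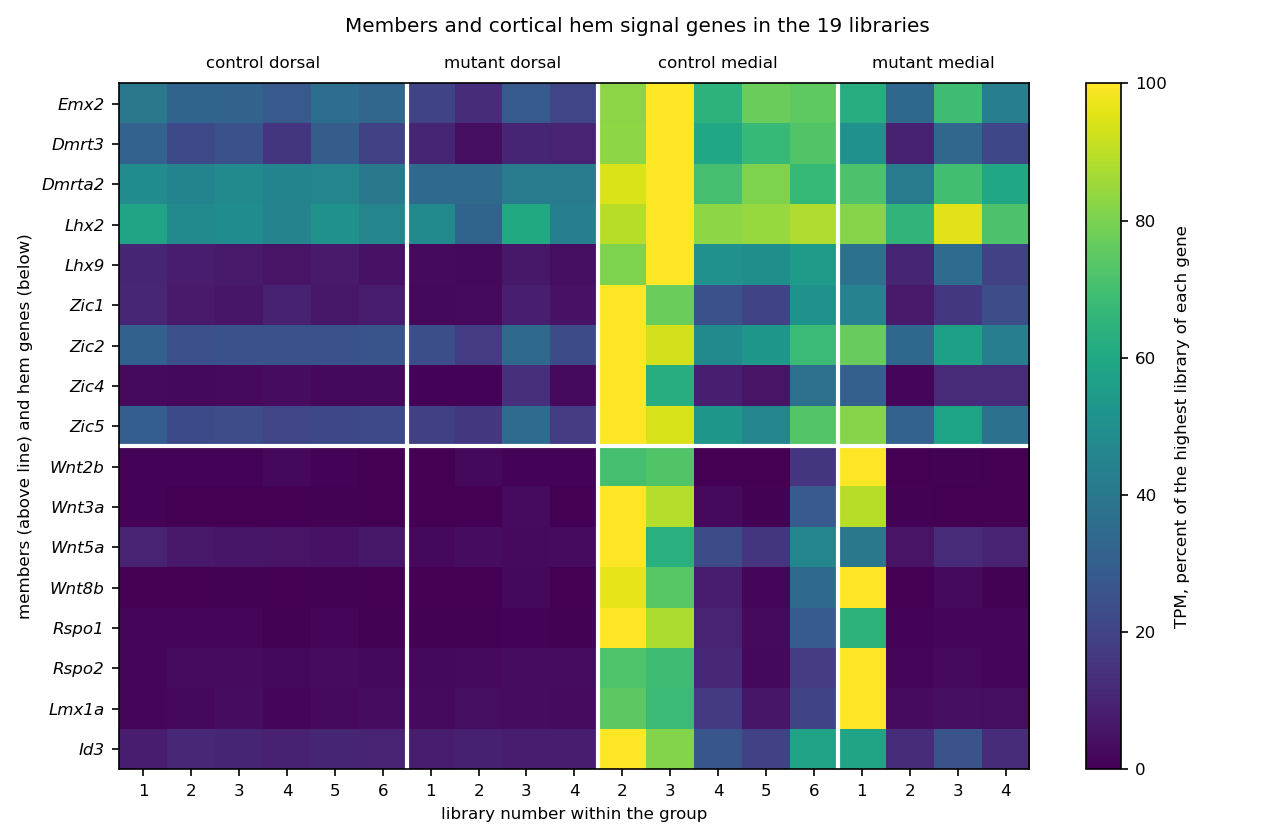
TPM of the 9 genes (above the line) and of 8 hem genes (below) in each library, as a percent of the gene's highest library (colour scale from 0 to 100), with libraries by group on the x axis. The 8 hem genes were picked from a list of 17. Most of the 8 are bright in control medial 2 and 3 and mutant medial 1, and dark in mutant medial 2 to 4. Wnt5a is dimmer in mutant medial 1 (13.58 TPM, beside 34.06 TPM in control medial 2). Msx1, Bmp6 and Wnt7b, which are listed but not shown, did not follow this order. The Zic genes are high in control medial 2 and 3 and mutant medial 1.

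Markers of other cells that could lie in a medial piece are given as measured. Their counts stand beside the 30.2% of all tested genes that were called lower in mutant medial cortex. Of 10 listed Cajal-Retzius genes 9 were tested, and 6 were lower in mutant medial cortex with 0 higher; Reln, their secreted glycoprotein, changed by -0.92 ± 0.20 (adjusted p = 0.00131). The summed TPM of the list ran from 131 to 212 in control medial and from 68.4 to 124.5 in mutant medial libraries, and 0 of the 9 passed dorsally. The sum of the choroid plexus list peaked in control medial 4 (Ttr 934 TPM) and mutant medial 3 (Ttr 160.5 TPM). Neither was among the libraries highest for the Zic genes in its genotype. Otx2 and Foxj1 of this list did not peak there. Among medial libraries of each genotype they were highest in control 2 (9.745 and 13.02 TPM) and mutant 1 (3.956 and 8.241 TPM). Of the 8 tested choroid plexus genes 2 were lower in mutant medial cortex (Otx2 and Foxj1), and the list's sum ran from 14.8 to 998 TPM in control and from 11.4 to 182 TPM in mutant medial libraries; Kcnj13, a defining channel gene, was at 0 in control 5 and in mutants 1, 2 and 4. None of 7 tested meningeal genes passed medially, with sums from 11.9 to 30.9 TPM in controls and from 8.54 to 88.2 TPM in mutants, highest in mutant medial 3 (Col1a1 13.3 TPM). Of 9 listed genes of thalamus and thalamic eminence 5 were tested, and 3 were lower and 1 higher in mutant medial cortex, with sums from 81.3 to 120.4 TPM in control and from 54.6 to 84.7 TPM in mutant medial libraries. The 1 higher gene was Olig3, a factor of thalamic progenitors: it was at most 0.406 TPM in control libraries and between 0.951 and 5.32 TPM in all 8 mutant libraries (1.61 ± 0.21 dorsally and 1.88 ± 0.22 medially; limma adjusted p = 1.41e-05 and 4.85e-06). The defining thalamic markers Gbx2 and Tal1 stayed below 1 TPM in every library. The part of these cells in the levels of the 9 genes was not tested.

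Genes that work beside the 9 factors showed mixed directions. Of 12 listed genes of the hippocampal primordium, 8 were higher and 1 lower in control medial than dorsal cortex, where 17.6% of all tested genes were called higher. In mutant medial cortex 4 of the 12 were lower and 1 higher, a share of lower genes near the 30.2% of all tested genes. Among the lower ones, Fzd9, a Wnt receptor, changed by -0.96 ± 0.26 (adjusted p = 0.00808). Lef1, a transcription factor of the Wnt pathway, changed by -0.83 ± 0.21 (adjusted p = 0.00495), and Axin2, a Wnt feedback gene, by -0.78 ± 0.21 (adjusted p = 0.00595). Prox1, which marks the future dentate gyrus, was at 4.13 TPM in control medial and 4.38 TPM in mutant medial libraries on average and did not pass. Of 12 pallial and LIM partner genes, 5 were lower and 1 higher dorsally, and 4 lower and 2 higher medially. Of all tested genes 27.6% were called lower dorsally and 30.2% medially. Ldb1, the cofactor that LIM homeodomain proteins bind, was lower medially by -0.33 ± 0.10 (adjusted p = 0.0139), and Lmo4, which competes for it, was higher medially than dorsally in controls (0.88 ± 0.10, adjusted p = 2.71e-05). Nr2f1, a caudolateral patterning factor, was higher in mutants in both regions (0.68 ± 0.15 dorsally and 0.72 ± 0.16 medially; adjusted p = 0.00235 and 0.00171), and Sp8, a rostromedial one, was lower in both (-0.61 ± 0.17 and -0.98 ± 0.18; adjusted p = 0.0101 and 0.000366).

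Of 13 listed relatives of the 9 genes 5 were tested, of which 4 were lower in mutant medial and 2 in mutant dorsal cortex, against 30.2% and 27.6% of all tested genes. Emx1, the relative of Emx2, fell by a smaller step than Emx2 in both regions (-0.28 ± 0.07 dorsally and -0.38 ± 0.07 medially; adjusted p = 0.00398 and 0.000429), without overlap in either; the difference between Emx1 and Emx2 was not tested. Dmrta1, next in the doublesex family, was not changed by genotype past the test and was higher medially in mutants (0.57 ± 0.12, adjusted p = 0.00549). Lhx6, a LIM gene of cortical interneurons that migrate in from the subpallium, ran the other way by region, with 21.5 TPM dorsally and 10.9 TPM medially in controls. The noncoding neighbours Emx2os (0.73 ± 0.19, adjusted p = 0.00612) and Dmrta2os (1.21 ± 0.19, adjusted p = 0.000185) were higher medially in controls, as their coding partners were, and passed no genotype test. Emx2os was still lower without overlap in mutant dorsal cortex (0.974 to 1.33 TPM, against 1.43 to 2.79 TPM in controls). The same held for 17.6% of all tested genes. Emx2os medially and Dmrta2os in both regions overlapped between genotypes.

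Across the 19 libraries, deviations from the 4 group means of log2(TPM + 1) were positively correlated for all 36 pairs of the 9 genes, with Pearson's r from 0.46 to 0.96 (median 0.77) and Spearman's rho from 0.44 to 0.92. This describes variation left after region and genotype; libraries share embryos, so no test is given. The closest pair was Zic2 and Zic5 (r = 0.96), each ranked at place 1 among 12352 genes for the other. Zic1 was closest to Zic4 (r = 0.94), and Zic4 had Spry1 (0.98), Pcsk6 (0.96) and Zic1 (0.94) as its 3 closest genes. Emx2 was closest to Dach1 (0.94), Lfng (0.93) and Lhx2 (0.93), and Dmrt3 to Lrig1 (0.90), Cachd1 and Dach1 (0.89 each). Lhx9 was closest to Lrig1, Rmst and Tnfrsf19 (0.94 each), and Dmrta2 to Galnt16 (0.93), Lhx9 (0.91) and Lef1 (0.89). Lhx2 was closest to B4galt1 (0.96), Yap1 and Pard3 (0.94 each), and had the lowest correlations with Zic1 (0.47) and Zic4 (0.46). For Lhx2, Zic1 ranked at place 2254 and Zic4 at place 2399 among the 12352 genes, and for Emx2 Zic4 ranked at place 1166. Many genes outside the 9 were therefore closer to these members, and positive correlations were not particular to the set.

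Calls lower in the mutant depended on how libraries were scaled. In dorsal cortex 1343 genes were called higher and 3727 lower, and after median-ratio rescaling of the libraries 2109 were higher and 1922 lower. In medial cortex the split changed from 1276 higher and 4081 lower to 2179 higher and 2261 lower. Emx2 and Dmrt3 kept their dorsal calls under that rescaling, and Emx2, Dmrt3 and Lhx9 their medial ones.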

How the data were processed

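Per the labels' protocols, an RNeasy Micro Kit gave the RNA, and sequencing libraries came from a stranded total RNA kit (TruSeq). The authors deposited 1 table of TPM, 1 column per library, on genome build mm10 per the submitters' processing notes; each column sums to 1000000. No aligner, quantifier or annotation is named in those sources.

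From these TPM, log2(TPM + 1) values of 13520 genes (those reaching 1 TPM in 4 or more libraries) entered a limma model (limma 3.58.1 in R 4.3.3) with a mean for each of the 4 groups over all 19 libraries, empirical Bayes with trend and robust settings, and Benjamini-Hochberg adjustment over all genes within each of 5 comparisons (threshold 0.05). Groups follow the library titles. TPM carry no depth, so precision rests on the number of libraries. The fit was tested on simulated data for 13520 genes: of genes changed by 1 on the log2 scale it recovered 95% for the dorsal and 94% for the medial mutant comparison and 83% for the difference between regions, and of those changed by 0.5 it recovered 77%, 68% and 45%. False calls were 5.49%, 6.36% and 4.48% of calls in these, 8.42% between regions in controls and 2.56% in mutants. In the simulation all libraries varied independently, and 100 genes were changed at each size. The measured libraries of an embryo deviated together (r from 0.549 to 0.795), and far more genes were called. The rates also pool genes of small and large spread, so they need not hold for the 9 genes.

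The title number was taken as the embryo within a genotype, because deviations from group means correlated in all 9 dorsal and medial pairs (r from 0.549 to 0.795); this pairing comes from the data. The labels' descriptions number the medial controls 1 to 5 where titles have 2 to 6, and the 5 control pairs by description number gave r from -0.438 to 0.0469. Numbers shared across genotypes did not pair libraries (7 pairs, r from -0.436 to 0.138). Embryo is not a term of the main model, and embryo blocks (statmod 1.5.0) were run as alternatives.

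The 9 genes were always named, with up to 4 genes by adjusted p from each of 11 further lists and comparison, marker genes, and the 3 genes most like each of the 9. Lists, genes and tests were chosen with earlier results of these data known. Alternatives changed the pseudocount, filter, scaling, variance model, libraries fitted, block and sex term, and left out each library in turn; 1 more, leaving out 4 libraries together, was added after the data were seen. Promoter windows were read from RefSeq with Python 3.11.15. Some genes are not reported here and were left out of the lists.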

Additional observations from a re-analysis of the deposited data

Results flagged for a closer look

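Of 36 sets of libraries examined (9 genes in 4 groups), 6 had a highest or lowest library far from the rest for the size of the group; chance alone marks about 1 set in 20. In mutant dorsal cortex, library 3 was high for Zic4, at 1.706 TPM where the other 3 lay between 0.128 and 0.313 TPM, and for Zic5, at 6.579 TPM where the others lay between 3.06 and 3.54 TPM. In the same group, library 2 was low for Dmrt3, at 1.665 TPM beside 4.34 to 4.53 TPM. In control dorsal cortex, library 1 was high for Zic2, at 12.51 TPM beside 9.85 to 10.4 TPM, and for Zic5, at 5.654 TPM beside 3.96 to 4.43 TPM. Control dorsal library 6 was low for Dmrta2, at 38.42 TPM beside 43.3 to 46.2 TPM.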

How the results depend on the processing

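No difference of the 9 genes that had passed changed sign under any alternative run. The count of the 9 genes lower in mutant dorsal cortex was 2 in all alternatives except with only the groups compared (5, adding Dmrta2, Lhx9 and Zic1), and with the title number as a replicate block or a pseudocount of 0.1 (3 each, adding Lhx9). In medial cortex the count was 5 with the 5 TPM filter and without trend and robust settings, 4 with a pseudocount of 0.1, no filter, quantile normalization or the random embryo block (each losing Zic1), and 6 with the title number as a block. It was 3 after median-ratio rescaling, with only the groups compared and with a term for embryo sex, and 2 without the 4 libraries over 1 TPM of Wnt3a, where 2683 genes were called in all. Sex is not in the labels and was read from expression, as female where Xist exceeded Ddx3y. By this rule 3 control embryos and 0 mutant embryos were female, so that sex is partly confounded with genotype in the main genotype comparisons. Leaving out a library most often gave a medial count of 4, and 2 to 7 in all, with 2 without mutant medial 2, 3 without mutant medial 4 and 7 without mutant medial 1. Blocks that pair libraries by embryo (replicate block) gave 49 genes with a random block and 16 with a fixed block for the difference between regions, 6614 between regions in controls and 5283 (random) and 4949 (fixed) in mutants; among the 9 genes the only call changed by the embryo block was the medial one of Zic1. The title number as a block across genotypes, which does not pair libraries, called Zic2 and Zic5 medially (limma adjusted p = 0.0498 and 0.0357) and lost Zic1 (0.0517). The single call of all genes for the difference between regions became 0 with no filter, without trend and robust settings and without the 4 Wnt3a libraries, and 0 to 3 when a library was left out (3 without control dorsal 1, 2 without control medial 5); at an unadjusted p under 0.05 it was 451, against 839 with no filter and 463 without those settings. Regional calls over all genes were 1204 in controls without those 4 libraries. In mutants they were 0 with only the groups compared, which also left 0 of the 9 genes, and ran from 1138 (without mutant dorsal 2) to 3678 (without mutant dorsal 3), with 1372 without mutant dorsal 4 and 1305 without mutant medial 3. Zic4 did not pass a filter of 5 TPM and has no value there. The cause of these changes was not tested, except that fewer libraries enter where some are left out or only some groups are fitted. Without counts, the error of low genes such as Zic4 cannot be separated into sampling and biological parts.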

Other observations

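Mutant dorsal library 3, which was high for Zic4 and Zic5, also held signalling genes of the rostral midline that were nearly absent from other dorsal libraries. Fgf8 was at 3.00 TPM there and at 0 in the other 9 dorsal libraries, and Fgf17 was at 10.7 TPM beside at most 0.492 TPM. Otx2 was at 2.07 TPM there and at most 0.235 TPM in the other dorsal libraries. The interneuron genes Lhx6 (8.11 TPM) and Dlx1 (2.89 TPM) were at their lowest dorsal values in the same library. Among medial libraries Fgf17 was at 9.94, 6.66 and 2.14 TPM in controls 2, 3 and 6, and at most 0.352 TPM in controls 4 and 5 and in all 4 mutants. These values are described only, and the genes outside the marker lists were chosen after their values were seen.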
